A study of Mus musculus with 72 samples.

Results

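The acute-phase genes described here are 10 mouse genes for plasma proteins of the acute phase, Saa1, Saa2, Saa3, Saa4, Orm1, Orm2, Apcs, Hp, Hpx and C3, matched by the gene name that the array files give each probe, out of 31093 genes on the array. They were picked by name and not by a measured value, but with earlier results of these data known. Each was read from its brightest probe. C3 was the only one with a choice of 2 probes, which followed each other with r = 0.995 over the 72 arrays. Saa1, Hp and C3 were well above background on all 72 arrays and Saa3 on 71, whereas Orm1 and Hpx were so on 50, Orm2 on 47, Saa2 on 44, Saa4 on 40 and Apcs on 38. Only Saa1, Saa3, Hp and C3 (4 of the 10) passed a filter on low and unvarying features rebuilt from the methods, so the filter was not applied and every member was tested. The rebuilt filter does not leave the same number of features as that of the study. Levels are log2 processed signals relative to the median of the detected probes of the same array, and levels of different probes are not compared with each other.

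The acute phase is the shift in plasma protein synthesis that follows injury or infection, when interleukin-1, interleukin-6 and tumor necrosis factor reach hepatocytes and drive factors of the C/EBP, STAT and NF-kB families. Saa1 and Saa2, orosomucoid, serum amyloid P, haptoglobin, hemopexin and C3 are made mainly by the liver in this state. Saa3 is known for its synthesis outside the liver, by macrophages, fat and epithelia, and haptoglobin is also made in maturing neutrophils. Albumin, encoded by Alb, is a liver product that is lowered in the acute phase, so its transcript was read in the same mice.

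Blood RNA was measured in male C57BL/6 mice, 8 to 10 weeks old, that were sham-irradiated in holders or given whole-body exposures of 0.25 or 1 Gy in a mixed neutron beam with a gamma component, or 1 or 4 Gy of x-rays. The paper's methods describe only mice killed at days 1 and 7. The groups of day 3 come from the labels, and the methods do not give sex, strain, age or handling for them. The 72 mice fell into 13 groups. Controls numbered 5, 5 and 6 mice at days 1, 3 and 7. The 0.25 Gy neutron groups held 6, 6 and 5 mice at those days, and the 1 Gy x-ray groups held 6, 5 and 5. The 1 Gy neutron groups held 6 mice at each of days 1 and 7, and the 4 Gy x-ray groups held 5 at day 1 and 6 at day 7. Each array held 1 mouse, blood was drawn by cardiac puncture, and globin RNA was reduced before labelling. All comparisons with one day's controls share those control mice.

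Between 40.2% and 67.3% of the non-control spots of an array were well above background, and the 1 Gy neutron arrays of day 7 were the dimmest, at 40.2% to 50.3%. All 10 markers of lymphocytes, platelets and red cells were above background on all 72 arrays. Markers of hepatocytes were also detected: all 15 in every mouse given 4 Gy of x-rays at day 1, but only 4 to 7 of 15 in the day 7 controls. Alb itself was above background in 55 mice. It was saturated on 5 arrays of day 1 (3 of 1 Gy of neutrons, 1 of 0.25 Gy of neutrons and 1 of 4 Gy of x-rays), and C3 was saturated on 2 of 1 Gy of neutrons, so these levels are lower bounds. Because these are bulk blood samples, fewer cells of a type and less RNA per cell cannot be told apart.

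Promoters are shown because most of these genes moved together at day 1. RefSeq promoters on build GRCm38.p6 matched 8 of the 10 members; Orm1 and Hp had no entry in the table. The 250 bases before the transcription start were searched on both strands. The C/EBP motif TTGCNNAA was present in 7 of the 8, all but Apcs, against 9.56% of 32851 mouse promoters of that length, and it was also present in that of Alb. The NF-kB motif (GGG and TTTCC with any 2 bases between) was in none of the 8, against 1.41% of all promoters. The STAT motif TTCNNNGAA was in that of Apcs only, against 7.02%, and the letters TATAAA in that of Orm2 only, against 12.4%. No match overlapped another motif. In the runs below, printed 5′ to 3′ on the strand of the gene, capitals mark the matches. Saa1 (chr7:46742981-46743230, minus strand) and Saa2 (chr7:46751583-46751832, plus strand) are a duplicated pair whose promoters were identical at 79.1% of positions when compared without gaps. An extra base in Saa2 puts the bases after it out of step, so this share understates their likeness. Saa3 (chr7:46715677-46715926, minus strand) belongs to the same family but by the same count shared no more than 32.8% with either. Orm2 (chr4:63362199-63362448, plus strand) carries the palindrome TTGCGCAA, and C3 (chr17:57228137-57228386, minus strand) has its match nearest the start, at 45 to 38 bases before it. A match of letters is a description of sequence and not of binding.
Saa1: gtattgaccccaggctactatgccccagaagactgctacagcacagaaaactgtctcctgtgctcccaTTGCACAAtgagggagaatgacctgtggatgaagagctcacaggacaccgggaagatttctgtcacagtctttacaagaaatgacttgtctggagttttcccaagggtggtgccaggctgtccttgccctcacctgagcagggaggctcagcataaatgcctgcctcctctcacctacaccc
Saa2: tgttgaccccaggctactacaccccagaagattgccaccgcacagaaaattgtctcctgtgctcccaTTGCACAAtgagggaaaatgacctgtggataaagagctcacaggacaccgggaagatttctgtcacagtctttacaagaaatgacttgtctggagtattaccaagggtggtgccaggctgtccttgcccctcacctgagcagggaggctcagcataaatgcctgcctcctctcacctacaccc
Saa3: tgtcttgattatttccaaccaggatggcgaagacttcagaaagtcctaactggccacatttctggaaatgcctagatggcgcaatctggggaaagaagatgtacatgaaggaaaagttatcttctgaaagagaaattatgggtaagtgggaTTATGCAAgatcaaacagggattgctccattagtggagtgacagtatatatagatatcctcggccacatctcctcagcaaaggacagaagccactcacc
Orm2: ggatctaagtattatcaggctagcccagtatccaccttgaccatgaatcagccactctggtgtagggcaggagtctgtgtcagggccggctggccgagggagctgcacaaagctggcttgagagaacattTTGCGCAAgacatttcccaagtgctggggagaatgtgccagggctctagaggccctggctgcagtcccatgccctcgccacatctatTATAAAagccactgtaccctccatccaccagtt
C3: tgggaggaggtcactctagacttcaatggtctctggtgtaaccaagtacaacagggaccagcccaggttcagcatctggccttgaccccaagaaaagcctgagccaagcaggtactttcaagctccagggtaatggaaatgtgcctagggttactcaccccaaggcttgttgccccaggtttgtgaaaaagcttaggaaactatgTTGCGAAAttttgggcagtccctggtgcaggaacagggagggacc

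The array probes were 60 bases long, and the longest run of identical bases shared between the probes of any pair of members was 8. Probes were not compared with transcripts, so whether a probe also binds the transcript of a related member was not tested. By the array files, on build mm9, the Saa probes lay on chromosome 7, with that of Saa1 at chr7:53996070-53996129 and that of Saa3 at chr7:53970389-53970448, and that of Hp lay at chr8:112099045-112099104. Which exon or UTR each probe lies in was not looked up here.

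One day after the 4 Gy x-ray exposure all 10 genes were higher than in controls in every mouse, and 8 passed, with a limma p below 0.001 and a false discovery rate (FDR) below 5% over all genes, the thresholds of the study. Without the dimmest array of each group 4 passed. The 8 were Saa1, Saa2, Saa3, Orm1, Orm2, Apcs, Hp and C3. Of all genes tested 17.3% passed in this comparison, 8.79% in the upward direction, and 13.2% were higher in every irradiated mouse than in any control. The median log2 difference of the 10 was 6.20, against 0.07 over all genes and 5.235 over the 15 hepatocyte markers. The mice given 4 Gy of x-rays differed from controls in Alb as well, by 4.63 ± 1.33 (SE) on the log2 scale, which did not pass (limma adjusted p = 0.0195). Their arrays shared no scan date with those of the controls, so date and exposure cannot be told apart here.

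Saa1 and Saa2 encode the serum amyloid A proteins that coat high-density lipoprotein in the acute phase. The level of Saa1 in the 5 controls of day 1 was 0.07, 1.09, 0.74, 6.11 and 0.07, and in the 5 mice given 4 Gy of x-rays it was 9.38, 9.82, 9.59, 9.45 and 8.52. Control mouse 4 stood far above the other controls, yet below all irradiated mice, and the difference was 7.74 ± 1.00 (SE, log2), a 213-fold higher level (limma adjusted p = 0.00034). Saa2 was at -0.56, -5.80, -0.25, 6.21 and -4.28 in the same controls, the second not above background, and at 8.76, 9.01, 8.64, 8.66 and 8.68 after 4 Gy. The irradiated mice lay close together and the controls far apart, without overlap, and Saa2 rose by 9.69 ± 1.78 (adjusted p = 0.00195). Saa4, the constitutive member of the family, was above background in 3 of 5 controls and in all 5 irradiated mice, differed by 6.22 ± 1.42 and missed the threshold with an unadjusted limma p of 0.00111.

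Saa3 took a course of its own among mice. Its controls lay at -1.46, 1.32, -1.47, -0.68 and -0.38, and the mice given 4 Gy of x-rays at 2.38, 4.79, 7.37, 6.77 and 6.89. The groups did not overlap, and the difference was 6.18 ± 0.91 (limma adjusted p = 0.000671). The mouse with the highest Saa1 among controls (6.11) had an ordinary Saa3 of -0.68, and the mouse with the lowest Saa3 after 4 Gy (2.38) had a Saa1 of 9.38.

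Among the binding and transport proteins, Orm1 and Orm2, which encode the drug- and lipid-binding alpha-1-acid glycoproteins, rose by 6.85 ± 1.43 and 7.22 ± 1.53 after 4 Gy of x-rays at day 1 (limma adjusted p = 0.00383 and 0.00424). Orm1 lay between 5.33 and 6.89 in these mice, and its controls ran from -4.82, below background, to 3.97. Those controls were widely spread, and with 1 mouse left out in turn the call of Orm1 was lost in 7 of 10 fits and that of Orm2 in 6. Apcs, which encodes serum amyloid P, was dim: it was above background in 2 of 5 controls, with levels of -4.20, -6.24, -3.13, -0.95 and -4.84, and in all 5 irradiated mice, at 0.98, 1.80, 2.06, 1.78 and 0.77. It rose by 5.35 ± 0.80 (limma adjusted p = 0.000707).

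Hp, which encodes haptoglobin, the scavenger of free hemoglobin, was at 5.37, 5.32, 5.59, 7.87 and 4.20 in controls of day 1 and at 9.16, 9.78, 9.57, 9.44 and 8.82 after 4 Gy of x-rays. All irradiated mice were above all controls, and Hp rose 12.9-fold (log2 difference 3.68 ± 0.55, limma adjusted p = 0.000709). Hpx, which encodes the heme scavenger hemopexin, ran from -1.63 to 7.22 in controls and from 7.50 to 9.31 in irradiated mice. Its difference of 6.03 ± 1.41 did not pass (unadjusted limma p of 0.00131). C3, the central component of complement, was at 5.06, 2.24, 5.96, 7.36 and 2.21 in controls and at 9.16, 10.01, 9.77, 9.43 and 9.01 after 4 Gy, and it rose by 4.91 ± 0.90 (limma adjusted p = 0.00191).

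**Figure D1:**
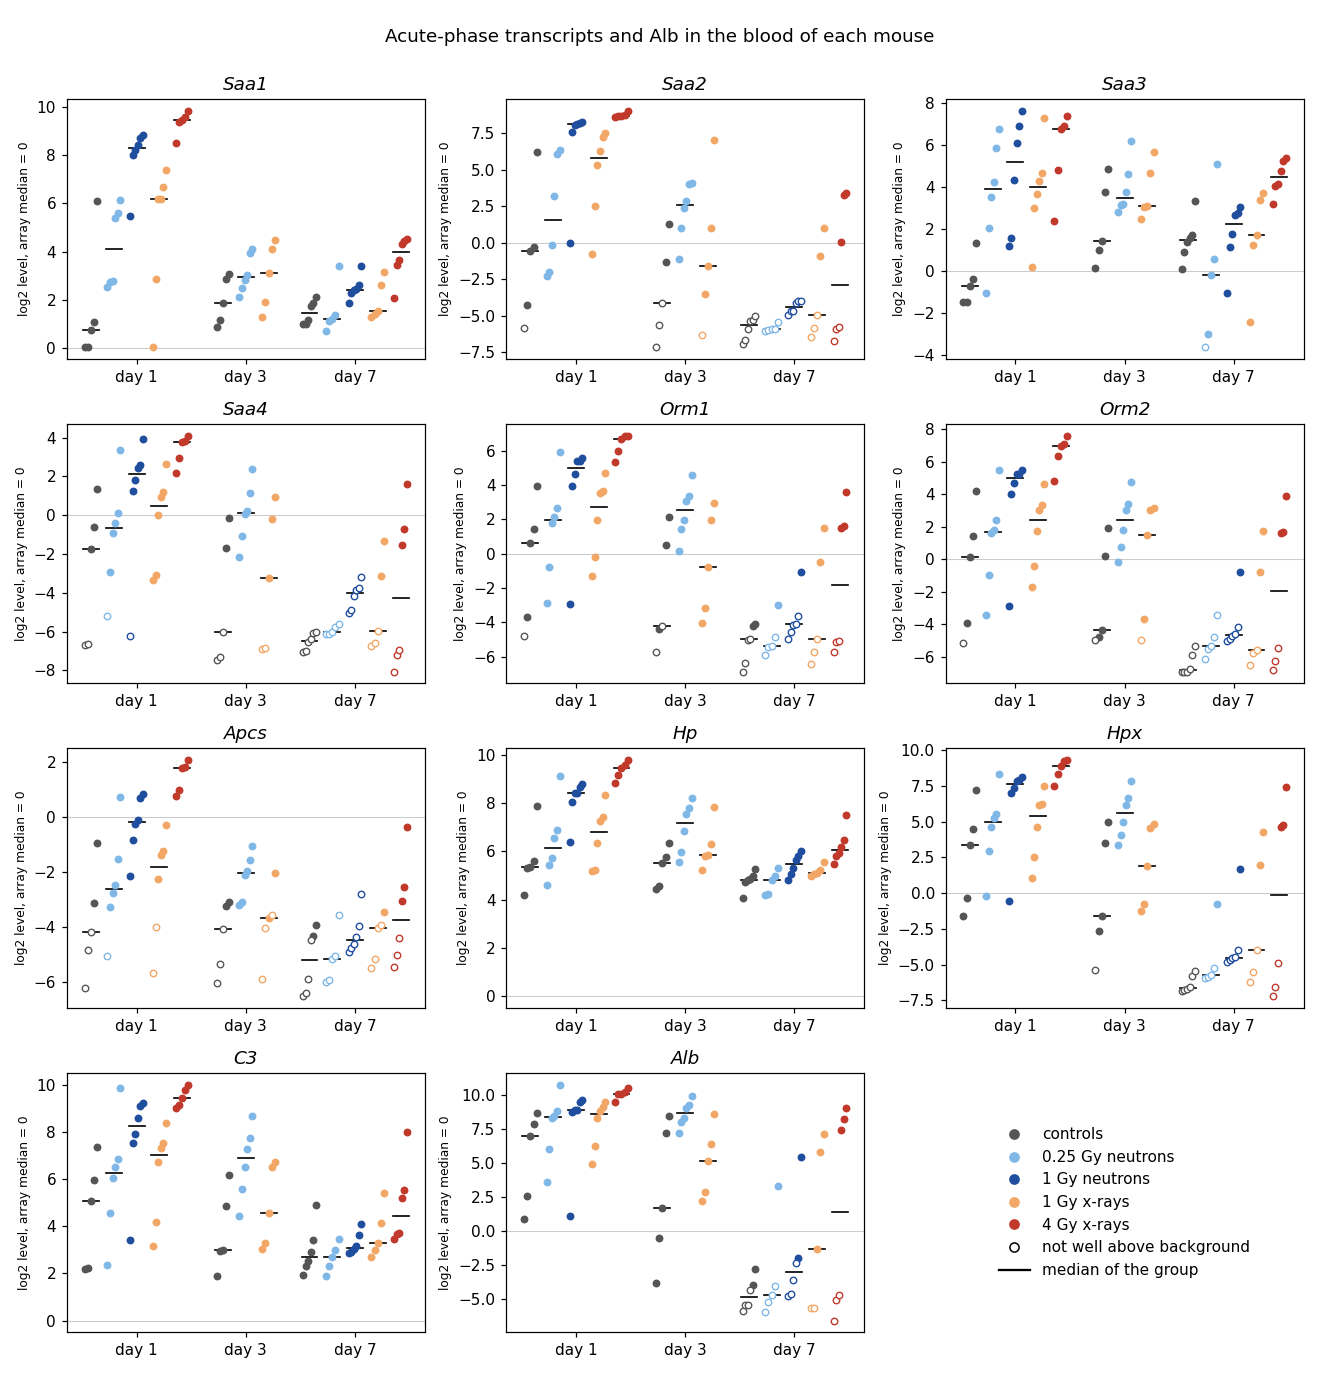
Level of each of the 10 genes and of Alb in each of the 72 mice by exposure and day, as log2 signal relative to the array's median of detected probes, with open symbols for mice in which the probe was not well above background and bars for group medians. Saa1 of the mice given 4 Gy of x-rays lies between 8.52 and 9.82 at day 1, above all controls of that day.

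After 1 Gy of neutrons at day 1, 1 of the 10 genes passed, Saa1, where 8.9% of all genes did and 3.29% rose. The 10 were higher on average in the neutron group by a median log2 difference of 4.00, against -0.22 over all genes, and 8 had an unadjusted limma p under 0.05. The median of the 15 hepatocyte markers was 3.05, and Alb differed by 2.38 ± 1.82. Saa1 ran from 5.47 through a median of 8.31 to 8.82 in the 6 mice, so that 5 of the 6 were above the highest control, and the rise was 6.33 ± 1.05 (limma adjusted p = 0.0029), which did not pass with normexp background correction. Saa3 ran from 1.19 through 5.19 to 7.60, with a difference of 5.14 ± 1.17 that stood just outside the threshold (unadjusted limma p of 0.00102). Saa2 was higher by 7.65 ± 2.13 (adjusted p = 0.0255), with 5 mice between 7.57 and 8.29 and mouse 4 at 0.00. Mouse 4 was low in most members and had an Alb of 1.09, against 8.72 to 9.65 in the other 5, of which 3 were saturated. Without it 4 of the 10 genes passed, and likewise 4 without control mouse 4, whose Saa1 was high, whereas 2 passed without either neutron mouse 1 or neutron mouse 2. Within the single scan date shared by 4 of the 6 neutron mice and the controls, Saa1 was higher by 5.98 (adjusted p = 0.0231).

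None of the 10 passed after 1 Gy of x-rays at day 1 (2.94% of all genes passed, and 3 members had an unadjusted limma p under 0.05) or after 0.25 Gy of neutrons at day 1 (0.00643% passed, and 2 members were under 0.05). Saa3 was the nearest in both. It ran from 0.19 through a median of 3.98 to 7.30 after x-rays, with 5 of 6 mice above the highest control and a difference of 4.39 ± 1.02 (unadjusted limma p of 0.0012, adjusted p = 0.0372). After 0.25 Gy of neutrons it ran from -1.04 through 3.89 to 6.77, again with 5 of 6 above the highest control, and the difference was 4.10 ± 1.19 (limma adjusted p = 0.321). Saa1 differed by 3.28 ± 1.47 and 2.59 ± 1.13 in these comparisons, and its x-ray mice were spread from 0.05 to 7.39. The 1 Gy x-ray arrays of days 1, 3 and 7 shared no scan date with the controls of their day.

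**Figure D2:**
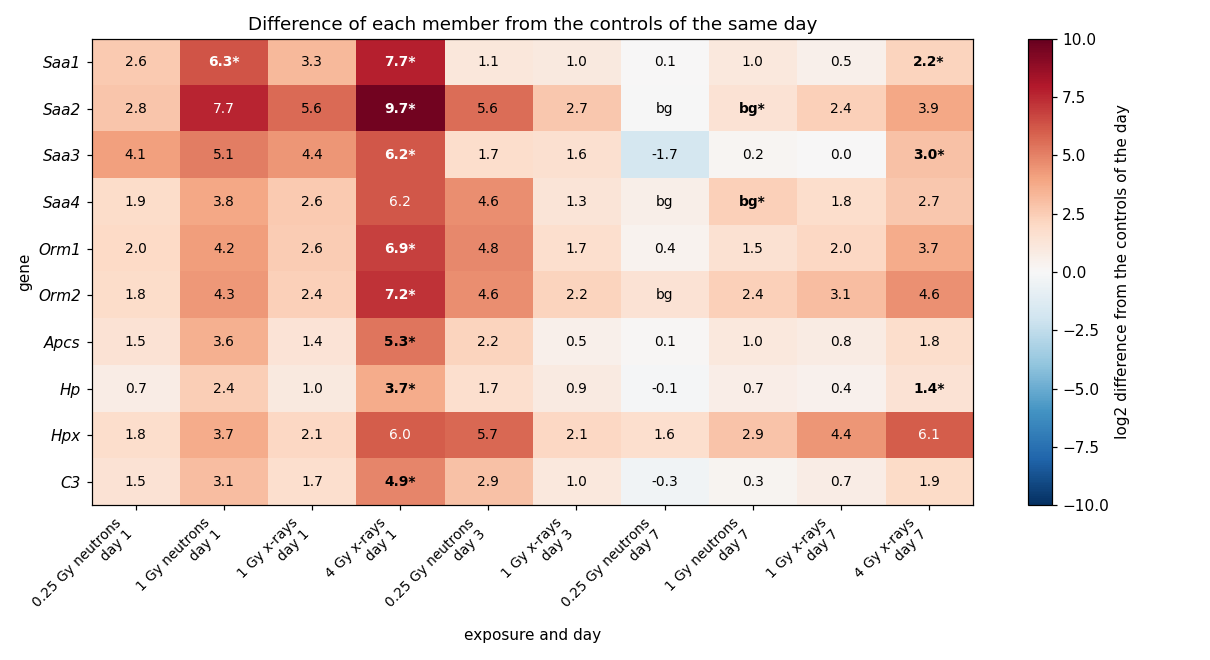
Log2 difference of each of the 10 genes (rows) from the controls of the same day in the 10 comparisons (columns), printed and coloured, with an asterisk where the gene passed the test and bg where it was below background on all arrays of both groups. Asterisks stand at 8 genes for 4 Gy of x-rays at day 1, at 1 gene for 1 Gy of neutrons at day 1 at 3 genes for 4 Gy at day 7 and, beside bg, at Saa2 and Saa4 for 1 Gy of neutrons at day 7.

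Radiation types were compared at 1 Gy. By the paper's methods, neutrons were given at a lower dose rate than x-rays, to mice in holders on a rotating wheel. The sham controls were mock-treated on that wheel. Dose rate and irradiation setup thus differed along with radiation type and cannot be told apart from it here. None of the 10 genes passed between neutrons and x-rays at day 1, where 4.69% of all genes did and 3 members had an unadjusted limma p under 0.05. Saa1 was higher after neutrons by 3.05 ± 1.14 (limma adjusted p = 0.127), and Saa3 differed by 0.75 ± 1.32. For Alb the difference was -0.03 ± 1.39. Between 4 and 1 Gy of x-rays at day 1, 4 members passed and were higher at the higher dose, Orm1 by 4.30 ± 0.97, Orm2 by 4.81 ± 1.02, Apcs by 3.96 ± 0.82 and Hp by 2.73 ± 0.53, where 8.07% of all genes passed and 2.16% rose. Saa1 differed by 4.46 ± 1.13 between the doses (unadjusted limma p of 0.00197) and Saa3 by 1.79 ± 1.17, neither past the threshold. Alb differed by 2.23 ± 0.74 between the doses. None of the 4 passed with Alb as a covariate, and none with scan date as a block (limma adjusted p from 0.203 to 0.233). The count also moved with single mice: it was 1 without 1 Gy mouse 2 or 4 Gy mouse 2, 3 or 4, 2 without 1 Gy mouse 6 or 4 Gy mouse 1, and 8 without 1 Gy mouse 1.

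For 9 of the 10 genes the level went with that of Alb across mice of the same group. With group means removed, the correlation with Alb over the 72 mice was highest for Hpx (r = 0.962, rho = 0.96), Orm1 (r = 0.883, rho = 0.918), Orm2 (r = 0.874, rho = 0.917) and Saa4 (r = 0.803, rho = 0.86), followed by Saa2 (r = 0.756, rho = 0.869), C3 (r = 0.689, rho = 0.798), Apcs (r = 0.647, rho = 0.711) and Hp (r = 0.441, rho = 0.534). For these 8 the permutation p was 1e-05, the smallest that 100000 permutations within groups can give, and 10 relations were computed. Saa1 was less closely related (r = 0.349, permutation p = 0.00053; rho = 0.379). Saa3 showed no single relation. Over all mice its r was 0.0426 (permutation p = 0.735; rho = -0.0548, permutation p = 0.668), but within days it was -0.233 at day 1, -0.56 at day 3 and 0.386 at day 7, and over the 54 mice with detected Alb in groups with at least 2 such mice it was -0.303 (rho = -0.318, permutation p = 0.0421). Without the 2 mice farthest from the median of Alb, r was 0.961 for Hpx, 0.315 for Saa1 and -0.00364 for Saa3. Within days the r of Saa1 was 0.615 at day 1, -0.23 at day 3 and 0.56 at day 7, and that of Hpx was 0.975, 0.968 and 0.97. The summed level of the 15 hepatocyte markers, Alb among them, ran from 4.47 to 11.51 (log2) in day 1 controls, from 4.67 to 12.37 after 1 Gy of neutrons and from 12.12 to 13 after 4 Gy of x-rays. The part of liver-derived RNA in the differences was not tested beyond the covariate given next.

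**Figure D3:**
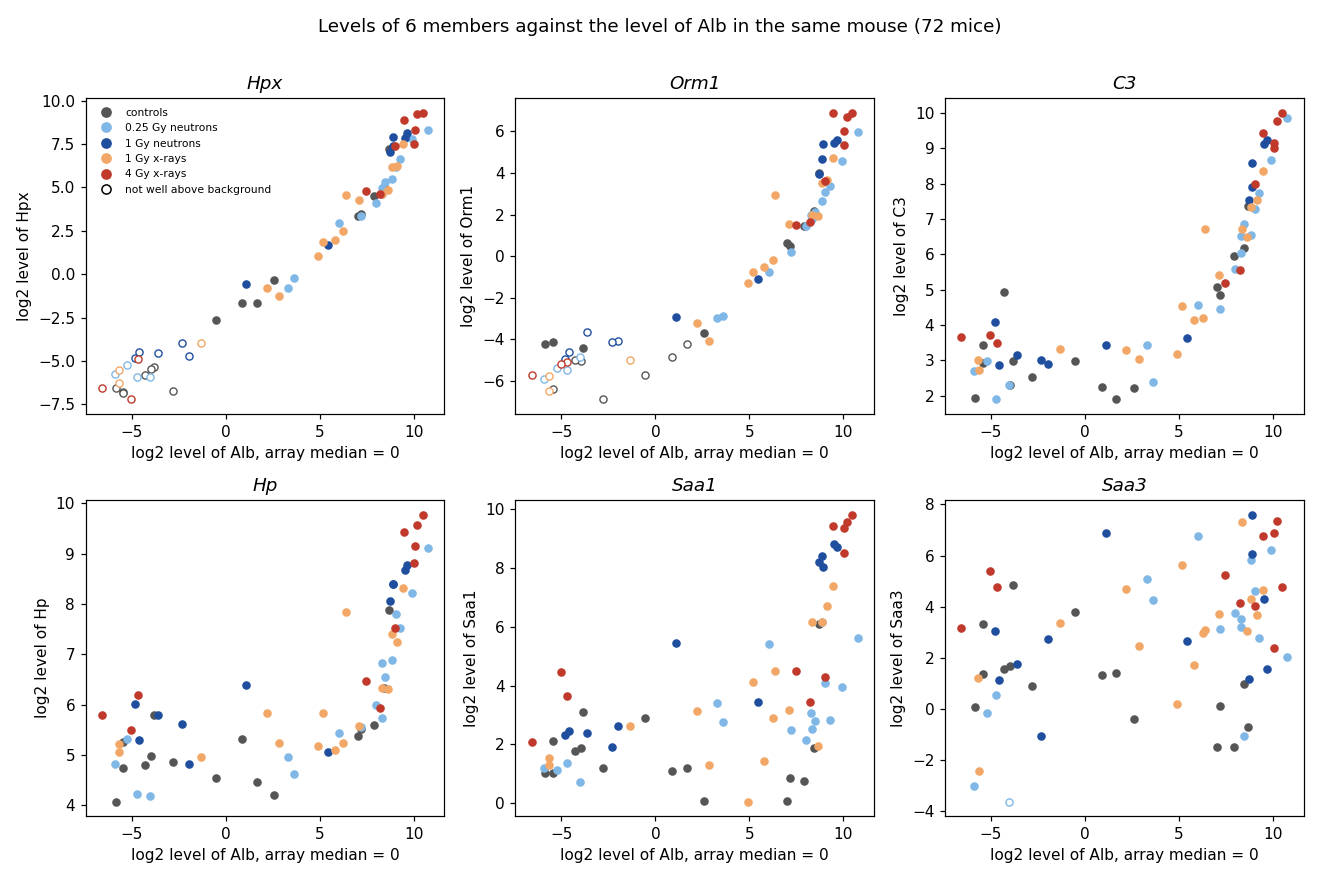
Level of Hpx, Orm1, C3, Hp, Saa1 and Saa3 against that of Alb in the same mouse, both as log2 signal relative to the array's median, with 1 point per mouse coloured by exposure and open where the gene was not well above background. Hpx follows Alb closely (r = 0.962 with group means removed), Hp and C3 climb mainly where Alb is high, and Saa3 shows no single relation (r = 0.0426).

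With the Alb level of each mouse as a covariate, 3 of the 10 genes passed after 4 Gy of x-rays at day 1, Saa3 by 7.51 ± 1.23, Saa1 by 6.11 ± 1.32 and Apcs by 3.02 ± 0.66 (limma adjusted p = 0.0087, 0.0239 and 0.0255). The remaining 7 were still higher, among them Saa2 by 4.22 ± 1.25, Hp by 2.50 ± 0.65, Orm1 by 2.10 ± 0.65 and Hpx by 1.37 ± 0.69, without passing. After 1 Gy of neutrons, 6 passed: Saa3 by 5.90 ± 1.12, Saa1 by 5.46 ± 0.90, Saa2 by 5.07 ± 0.89, Apcs by 2.64 ± 0.52, Orm1 by 1.76 ± 0.36 and C3 by 1.55 ± 0.34. Between neutrons and x-rays at 1 Gy, day 1, the same covariate left 4 that passed, all higher after neutrons: Orm2 by 1.91 ± 0.34, Orm1 by 1.64 ± 0.31, Hpx by 1.63 ± 0.30 and Hp by 1.51 ± 0.32. Between 4 and 1 Gy of x-rays at day 1 it left none, and the differences went from 4.30 to 1.55 ± 0.51 for Orm1, from 4.81 to 2.06 ± 0.69 for Orm2, from 3.96 to 1.61 ± 0.40 for Apcs and from 2.73 to 1.34 ± 0.37 for Hp. The saturated Alb values, 3 of them among the 6 neutron mice, limit these adjusted differences, as the 2 saturated values of C3 do its own. Alb was correlated with exposure to 4 Gy in these mice (r = 0.725 with group membership, and 0.362 for 1 Gy of neutrons), so the covariate also takes up part of any change in Alb with the exposure. No control of day 1 had an Alb as high as any mouse given 4 Gy (0.88 to 8.68 against 9.46 to 10.48). All mice given 1 Gy of neutrons but mouse 4, at 1.09, also lay above these controls, at 8.72 to 9.65. For both exposures the covariate thus extends a straight line beyond the controls, and the relation of Hp and C3 to Alb was not straight. One mouse given 0.25 Gy of neutrons, with a saturated Alb at 10.75, had an Hp of 9.10 and a C3 of 9.85, both within the range after 4 Gy, and a Saa1 of 5.62, below all mice given 4 Gy.

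**Figure D4:**
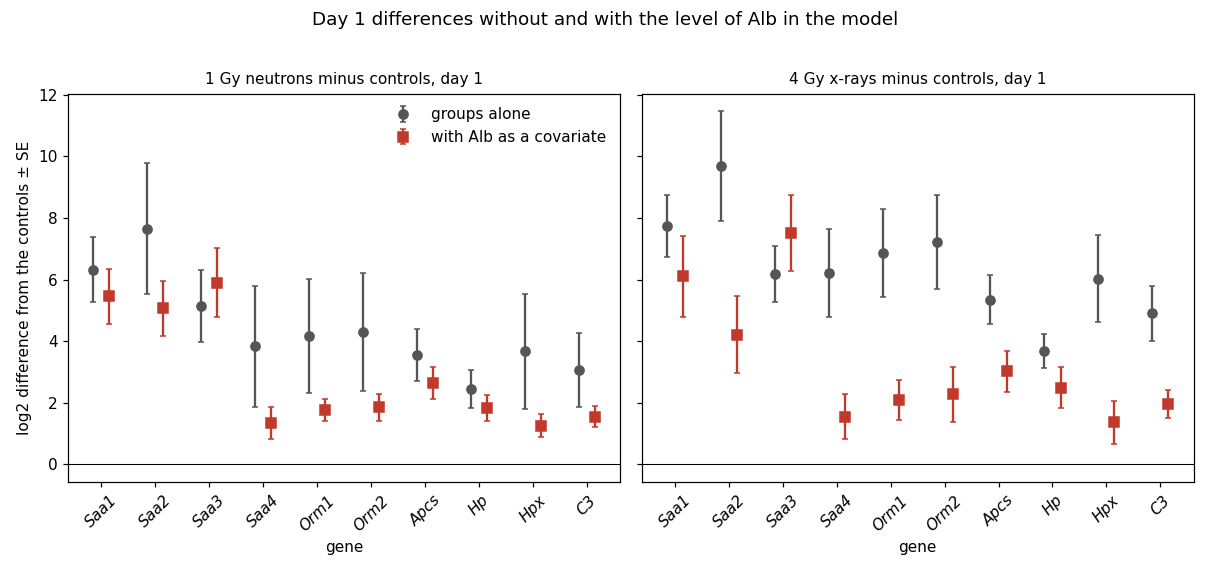
Log2 difference of each member from the controls of day 1 without and with Alb as a covariate, with standard errors, for 1 Gy of neutrons and 4 Gy of x-rays. With the covariate Saa1 and Saa3 stay at 6.11 and 7.51 after 4 Gy, while Hpx goes from 6.03 to 1.37.

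At day 3 none of the 10 genes passed after 0.25 Gy of neutrons (0.00322% of all genes passed) or after 1 Gy of x-rays (0% passed). After 0.25 Gy of neutrons all 10 means were higher, by 1.11 (Saa1) to 5.75 (Hpx), 9 had an unadjusted limma p under 0.05, and adjusted limma p ran from 0.146 to 0.361. Their median was 3.78, against 0.13 over all genes and 5.48 over the 15 hepatocyte markers. Saa2, for example, ran from -1.10 through a median of 2.61 to 4.12 in these 6 mice, with 4 above the highest of the controls, which lay at -5.60, 1.26, -1.30, -4.12 and -7.13. Alb moved with them, at 7.19 to 9.91 in the neutron mice and at -3.83, 8.43, 7.17, 1.66 and -0.54 in the controls, and the summed hepatocyte markers ran from 9.72 to 12.51 and from 2.88 to 11.37. After 1 Gy of x-rays the 10 differences were between 0.52 (Apcs) and 2.72 (Saa2), none with an unadjusted p under 0.05.

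At day 7 after 4 Gy of x-rays 3 of the 10 genes passed, Saa1, Saa3 and Hp, where 9.1% of all genes did and 4.09% rose. Saa3 ran from 3.17 through a median of 4.45 to 5.39 in the 6 mice, against 0.10 through 1.48 to 3.31 in the 6 controls, and rose 7.81-fold (log2 difference 2.96 ± 0.51, limma adjusted p = 0.00206). Saa1 ran from 2.07 through 3.98 to 4.51, against 1.01 through 1.48 to 2.13, and rose 4.73-fold (2.24 ± 0.40, limma adjusted p = 0.00254). Hp ran from 5.49 through 6.06 to 7.52, against 4.07 through 4.83 to 5.25, and rose 2.73-fold (1.45 ± 0.32, limma adjusted p = 0.00795). Hp did not overlap with controls, as was so for 4.78% of all genes, and 1 of 6 irradiated mice overlapped for each of Saa1 and Saa3. With each mouse left out in turn, Hp lost its call in 7 of 12 fits (unadjusted limma p up to 0.00169), whereas those of Saa1 and Saa3 were kept in all 12. In 1 fit over all groups none of the 3 passed, and with normexp correction 1 did.

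The day 7 mice of 4 Gy fell apart by Alb. It was at 7.45, 8.21 and 9.01 in mice 2, 4 and 6 and below background at -6.58, -4.69 and -5.04 in mice 1, 3 and 5. Saa2 was at 3.27, 0.07 and 3.38 in the first of these sets and below background in the second, as it was in all 6 controls. Hpx behaved likewise, at 4.79, 4.64 and 7.40, and did not pass (limma adjusted p = 0.0755). On average over the 6 mice it was 20.9-fold above the background limit set for the controls. Mice 1, 3 and 5 enter that average with signals below background, so the fold is not a lower bound. Saa1 and Saa3 did not divide that way: mouse 5, with Alb below background, had the highest Saa3 of the 6, at 5.39, and a Saa1 of 4.45. In mice 1, 3 and 5 only 5 or 6 of the 15 hepatocyte markers were detected, and in the other 3 all 15. Over the list the summed level ran from 2.58 to 11.51 in the irradiated mice and from 3.24 to 6.94 in controls. With Alb as a covariate Saa3 alone passed, at 2.94 ± 0.62 (limma adjusted p = 0.0126), and Saa1 was at 1.90 ± 0.44 (limma adjusted p = 0.0212, unadjusted 0.00116). The 4 Gy arrays and their controls were scanned on a date each, so date and exposure cannot be told apart here.

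**Figure D5:**
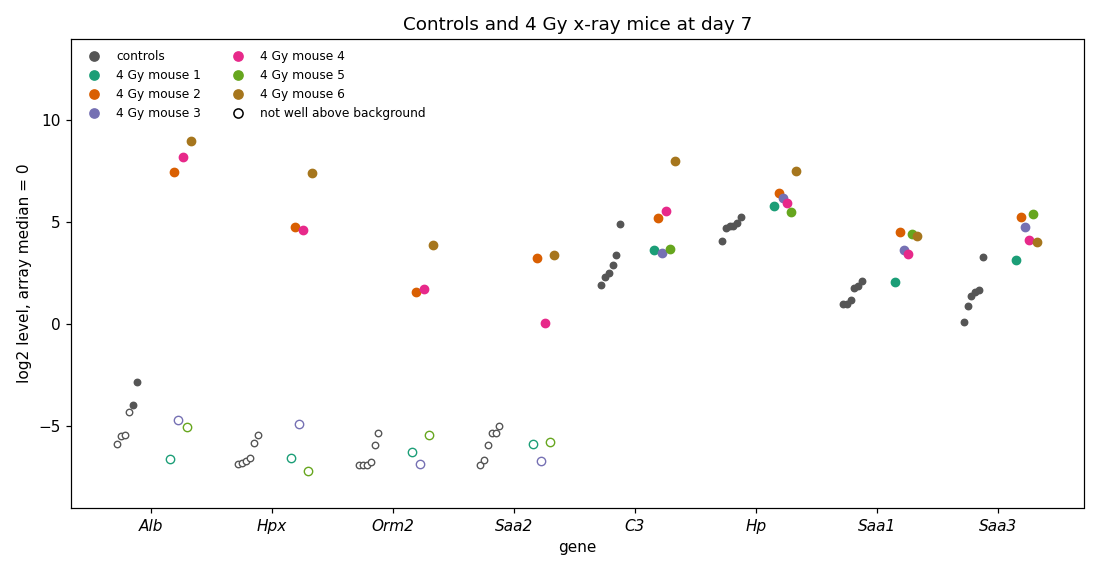
Levels of Alb, Hpx, Orm2, Saa2, C3, Hp, Saa1 and Saa3 in each of the 6 mice at day 7 after 4 Gy of x-rays, each mouse in its own colour, beside the 6 controls in grey, as log2 signal relative to the array's median; open symbols were not well above background. Mice 2, 4 and 6 have Alb between 7.45 and 9.01, and Hp is above all 6 controls in all 6 mice.

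After 1 Gy of neutrons at day 7, Saa2 and Saa4 passed (2 of 10, where 39.2% of all genes did and 30.9% rose), but both were below background on all 12 arrays, so no fold is given. Saa2, Saa4, Orm2 and Hpx were higher in every neutron mouse than in any control, as were 30.5% of all genes, and all genes had a median difference of 0.77 on these dim arrays. Beside that shift the difference of Saa1 was 1.03 ± 0.28 (unadjusted limma p of 0.00271), and that of Saa3 was 0.22 ± 0.68. None of the 10 passed at day 7 after 0.25 Gy of neutrons (0.997% of all genes passed; 2 members had an unadjusted limma p under 0.05) or after 1 Gy of x-rays (1.33% passed; 2 were under 0.05). Saa1 differed by 0.07 ± 0.44 and 0.52 ± 0.37 in these. Between neutrons and x-rays at 1 Gy no member passed at day 7 (32.3% of all genes did, and no member had an unadjusted limma p under 0.05), and between 4 and 1 Gy of x-rays none passed either (4.23% did, and 3 members were under 0.05).

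The effect on Saa1 was smaller at day 7 than at day 1, and this difference was tested with an interaction term. It was -5.30 ± 1.09 for 1 Gy of neutrons (limma adjusted p = 0.00036) and -5.50 ± 1.08 for 4 Gy of x-rays (limma adjusted p = 0.00108). The neutron term was -4.05 with scan date as a block (limma adjusted p = 0.0764), and neither term passed without the dimmest array of each group. The x-ray arrays shared no scan date with the controls of their day, so date and exposure cannot be told apart in that term. Saa1 was the only member that passed in either, where 30.9% and 12.7% of all genes passed and 3.8% and 6.75% fell. For Saa3 the terms were -4.91 ± 1.40 and -3.21 ± 1.07 (unadjusted limma p of 0.00196 and 0.00669). Without control mouse 4 of day 1 the counts were 3 and 2. They were 2 for neutrons without neutron mouse 1, 2 or 4 of day 1, and 2 for x-rays without 4 Gy mouse 1 of day 1 or mouse 6 of day 7.

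The controls themselves differed between days in these fits without a filter. The paper, with its filter on low and unvarying features, reports no significant gene between its controls (FDR above 0.05). Each control group was scanned on 1 date, and no fit with scan date was made between them. From day 1 to day 7, 1 of the 10 genes fell, Hpx, where 3.99% of all genes passed and 0.881% fell. It was above background in all 5 controls of day 1, at 3.35, -1.63, 4.51, 7.22 and -0.34, and in none of the 6 of day 7, at least 158-fold lower (limma adjusted p = 0.00983). Alb fell by 10.05 ± 1.33 on the log2 scale (limma adjusted p = 0.0088), and 12 to 15 hepatocyte markers were detected in the controls of day 1 against 4 to 7 at day 7. With Alb as a covariate the Hpx difference was 0.17 ± 1.38. Saa1 differed by -0.12 ± 0.94 and Saa3 by 2.03 ± 0.60 between these controls, neither past the threshold. Without control mouse 2 of day 1 the count was 4, and without mouse 5 it was 2. No member passed between days 1 and 3 (0.00322% of all genes did; 1 member had an unadjusted limma p under 0.05) or days 3 and 7 (3.09% did; 3 were under 0.05), where 1 passed without control mouse 1 of day 3.

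Among 20 other acute-phase proteins, 11 rose after 4 Gy of x-rays at day 1, where 8.79% of all genes rose, and none fell. The zinc-binding metallothioneins Mt1 (7.54 ± 0.71) and Mt2 (7.26 ± 0.71) were highest. The median of the list was 5.21, near the 5.235 of the 15 hepatocyte markers in the same comparison. After 1 Gy of neutrons at day 1, 2 rose, where 3.29% of all genes did. They were Mt1, by 4.74 ± 0.98, and Lcn2, the siderophore-binding lipocalin, by 2.79 ± 0.50. The median of the list was 3.59, against 3.05 for the hepatocyte markers. At day 7 after 4 Gy, 5 rose, where 4.09% of all genes did, led by the metalloreductase Steap4 (3.79 ± 0.50) and complement factor B, Cfb (3.50 ± 0.72). The median of the list was 3.61 there, against 4.47 for the hepatocyte markers. At day 7 after 1 Gy of neutrons 3 rose, among them Mt2 by 3.21 ± 0.39, where 30.9% of all genes rose, and none passed in the other 6 comparisons with controls. Of 10 genes listed as negative acute-phase proteins, a class whose synthesis is lowered in the acute phase, none passed as lower in the 10 comparisons. In the day 7 controls only 4 to 7 of 15 hepatocyte markers were detected, so a fall of liver transcripts could hardly be seen there. After 4 Gy at day 1, 2 of them rose, Serpina6, the corticosteroid carrier, by 6.67 ± 1.28 and the protease inhibitor Tfpi2 by 3.18 ± 0.63. Tfpi2 also rose at day 7 after 1 Gy of neutrons, by 2.00 ± 0.21, where 30.9% of all genes rose. The median of the list was 4.62 at day 1 and 4.775 at day 7 after 4 Gy, against 5.235 and 4.47 for the hepatocyte markers. The part of liver-derived RNA in these medians was not tested.

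Of 15 genes for acute-phase cytokines and their signalling, 2 passed as higher after 4 Gy of x-rays at day 1, near the 8.79% of all genes that did, the interleukin-1 receptor Il1r1 by 3.71 ± 0.57 and Cebpb, which encodes a C/EBP factor, by 1.35 ± 0.22. Nfkb1 alone of the 15 passed after 1 Gy of neutrons at day 1, where 8.9% of all genes did, and fell by 0.84 on the log2 scale. Tnf alone passed at day 7 after 4 Gy, where 4.09% of all genes rose, and rose by 1.03 ± 0.22. With 1 of 15 each, these counts are near the shares of all genes. Of 13 receptors that bind acute-phase proteins, 2 rose and 2 fell after 4 Gy at day 1, where 17.3% of all genes passed. At day 7 after 4 Gy 5 rose and 1 fell, where 9.1% of all genes passed. At day 1, 1 rose and 1 fell after 1 Gy of neutrons (8.9% passed), and 2 fell after 1 Gy of x-rays (2.94% passed). Cr2, the complement receptor of B cells, fell by 5.56 at day 1 and by 4.00 at day 7 after 4 Gy. It fell by 3.53 after 1 Gy of neutrons and by 1.08 after 1 Gy of x-rays at day 1. C3ar1, the receptor of the C3 fragment, rose by 2.44 ± 0.41 at day 7 after 4 Gy, and the formyl peptide receptor Fpr2, a receptor of serum amyloid A, by 1.81 ± 0.29 at day 1 after 1 Gy of neutrons.

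Some markers of neutrophils and monocytes were higher beside Saa3 and Hp at day 7 after 4 Gy, where 4.09% of all genes rose. There 3 of 13 neutrophil markers rose, with Ltf at 2.67 ± 0.54 and Ngp at 2.12 ± 0.39, and the other 10 did not pass. Of 8 monocyte and macrophage markers 4 rose, with Cd14 at 2.10 ± 0.39. The summed levels overlapped between irradiated mice and controls, at 8.18 to 9.77 (median 9.22) against 9.18 to 9.59 (median 9.28; log2) for neutrophil markers and 6.13 to 6.79 against 5.87 to 6.67 for monocyte markers, whose 8 genes were detected in every mouse. At day 1 after 4 Gy, Cd14 rose by 2.74 ± 0.57 while Cx3cr1 fell by 2.13. The part of these cells in the differences of Saa3 and Hp was not tested.

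The genes whose pattern was most like that of each member, over 12239 genes and 72 mice with group means removed, also separated the family. For Hpx they were Vtn (r = 0.992), Mug2 (0.988) and Mug1 (0.987), for Orm1 Gltpd2 (0.974), Apon (0.973) and Itih4 (0.972), and for Orm2 Gltpd2 (0.964), Fgb (0.961) and Plg (0.96). Saa4 was most like Enpp3 (0.977), Sema4g (0.976) and Cyp4f15 (0.975), and Saa2 like C9 (0.92), Enpp3 (0.91) and Apob (0.902). C3 was most like Slc22a18 (0.968), Tmem53 (0.96) and Prodh (0.958), and Apcs like Egfr (0.871), Akr1c12 (0.869) and Cdhr5 (0.868). Saa3 was nearest to C1qc (0.933), Ptgis (0.93) and Plxdc2 (0.926), Hp to Wfdc21 (0.94), Rnf128 (0.897) and Slc31a1 (0.896), and Saa1, the least closely matched, to Fam20c (0.774), Tspan4 (0.771) and Lbp (0.757). Within the family Saa2 followed Saa4 (r = 0.916) more than Saa1 (0.578), and Saa3 followed Saa1 at 0.42 and Saa2 at -0.0747. These correlations share the arrays and their centring and are given as a description.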

How the data were processed

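Single-color Agilent 4x44K v2 arrays held 1 mouse each, with the groups taken from the labels, which also give the groups of day 3. The labels give separate mice, so the spread is between animals. Scanner images were read by the authors with Feature Extraction 12.0.2, which subtracts background, and the deposited per-array files hold these processed intensity values with a flag for each spot (well above background, saturated, non-uniform or outlier). The authors also deposited a table of normalized log2 values. Of its 72 columns 12 followed the array of the named sample and 60 followed another array, 21 of them one of another group (Spearman rho of 1). All 72 columns of values lay in the order of another sort of the animal numbers that the array files carry, while all 72 array files carry the labelled group, so the per-array files were taken as labelled and the table was used only as an alternative, for 0.25 Gy of neutrons at day 1.

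Flagged spots were removed, spots of a probe were averaged, log2 intensities were centered per array on the median of 19808 probes detected on the arrays, and the brightest probe stood for each of 31093 genes. No filter on low values was applied. Each comparison was fitted with limma 3.58.1 in R 4.3.3 on the mice of its own groups. A gene passed where its p was under 0.001 and its adjusted p (Benjamini-Hochberg, all genes) under 0.05, the thresholds of the study's class comparison. Fits were tested on simulated data. Where a probe was below background on all arrays of a group, a fold was given against the higher of the probe's own signal and the lowest signal well above background. It is a bound only where the other group was above background in every mouse. The number of arrays limits the precision. Alternatives were normexp correction with an offset of 50, 75th percentile, quantile and spike-in scaling (7 probes), the filter rebuilt from the methods (10857 genes), probe averaging, 1 fit over all groups, the random variance test, scan date (7 dates), slide (19) and replicate number as blocks, Alb as a covariate, leaving out each mouse and, chosen after seeing the data, the dimmest arrays, single scan dates and mice with detected Alb. Named genes were the 10 members, Alb, at most the 2 called genes with the largest rise and the 2 with the largest fall of each further list, and the 3 genes most correlated with each member. A few genes that this rule names are not reported here. Members and lists were chosen with earlier results of these data known.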

Additional observations from a re-analysis of the deposited data

Results flagged for a closer look

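Among 130 sets of a gene and a group of mice, 15 held a mouse far from the others by Dixon's criterion, which flags about 1 set in 20 by chance. Mouse 4 of 1 Gy of neutrons at day 1, with Alb at 1.09, accounted for 8 of them. Its Saa1 was 5.47 (others 8.03 to 8.82), its Saa2 0.00 (-0.0005882 before rounding, others 7.57 to 8.29), its Hp 6.39 (others 8.05 to 8.78) and its C3 3.44 (others 7.54 to 9.22). Its Orm1 was -2.91 (others 3.96 to 5.56), its Orm2 -2.88 (others 4.04 to 5.50), its Hpx -0.53 (others 7.01 to 8.14) and its Saa4, below background, -6.24 (others 1.25 to 3.95).

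Control mouse 4 of day 1 had a Saa1 of 6.11 (others 0.07 to 1.09) with Alb at 8.68, the highest of its group. At day 7 mouse 1 of 1 Gy of neutrons, with Alb at 5.43, had an Orm1 of -1.08, an Orm2 of -0.75 and an Hpx of 1.71, where the other 5 mice were below background in all of these. Mouse 4 of 0.25 Gy of neutrons at day 7, with Alb at 3.29, had a Saa1 of 3.42 (others 0.73 to 1.37) and an Hpx of -0.77 (others below background), and mouse 5 of that group had a Saa2 of -5.42, which like the rest of its group was below background.

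The effect on Saa1 differed between days 1 and 7, by -5.30 on the log2 scale for 1 Gy of neutrons and by -5.50 for 4 Gy of x-rays, as tested by the interaction term in limma. The neutron term did not pass with scan date as a block (-4.05, limma adjusted p = 0.0764), and neither passed without the dimmest array of each group.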

How the results depend on the processing

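Of 262 values of single called genes under other settings, 192 kept direction and call, 68 kept direction but not the call and 2 reversed. The reversed ones were Saa2 at day 7 after 1 Gy of neutrons with spike-in scaling (-0.60) and Hpx in the controls of day 7 against day 1 with Alb as a covariate (0.17). Saa1, Saa3 and Apcs after 4 Gy of x-rays at day 1 passed under every setting run for them, whereas Saa1 after 1 Gy of neutrons was lost with normexp correction and with the replicate block (adjusted p up to 0.0565). At day 7 after 4 Gy, Saa3 was lost only in the fit over all groups and Hp under 8 of 12 settings. The counts that moved were as follows, as genes called of 10. At day 1 after 1 Gy of neutrons the count of 1 was 0 with normexp, 4 with spike-in scaling, 2 with the filter of the methods (4 genes tested), 2 with probes averaged, 5 in the fit over all groups, 5 with slide as a block and 6 with Alb. After 1 Gy of x-rays the count of 0 was 1 with the filter and 2 in the fit over all groups. After 4 Gy the count of 8 was 4 with the filter (all 4 tested), 3 with Alb and 4 without the dimmest arrays. At day 7 after 1 Gy of neutrons the count of 2 was 0 with normexp, quantile or spike-in scaling, the filter or the fit over all groups, and 1 with slide, with Alb or without the dimmest arrays. After 4 Gy the count of 3 was 1 with normexp, 0 in the fit over all groups and 1 with Alb. In the controls of day 7 against day 1 the count of 1 was 0 with normexp, the filter, Alb or without the dimmest arrays. With spike-in scaling 1 passed in day 3 against day 1 and 4 in day 7 against day 3. Between neutrons and x-rays at 1 Gy the count of 0 was 1 in the fit over all groups and 4 with Alb at day 1, and 1 with normexp at day 7. Between x-ray doses at day 1 the count of 4 was 0 with normexp, scan date, Alb or without the dimmest arrays, 8 with spike-in scaling and 1 with the filter, and at day 7 the count of 0 was 3 with spike-in scaling. For the change of effect between days, the count of 1 for neutrons was 5 with spike-in scaling, 3 with Alb and 0 with scan date or without the dimmest arrays, and the count of 1 for x-rays was 5 with Alb and 0 without the dimmest arrays. The cause of these moves was not tested, except that the filter leaves 4 genes to test.

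With 1 mouse left out, the counts ranged from 1 to 4 at day 1 after 1 Gy of neutrons, 0 to 1 after 1 Gy of x-rays and 6 to 10 after 4 Gy. At day 7 they ranged from 1 to 3 after 1 Gy of neutrons and 2 to 3 after 4 Gy. They ranged from 1 to 4 in the controls of day 7 against day 1, 0 to 1 in day 7 against day 3, 1 to 8 between x-ray doses at day 1 and 0 to 1 at day 7, and 1 to 3 and 1 to 2 for the changes of effect. In the other comparisons the count was 0 in each such fit. With the replicate block the count was 0 at day 1 after 1 Gy of neutrons, 0 in the controls of day 7 against day 1 and 0 between x-ray doses at day 1. Same-numbered mice shared only a number, with correlations of their deviations from -0.56 to 0.653. The correlation of Saa3 with Alb was -0.303 (rho = -0.318, permutation p = 0.0421) over the 54 mice with detected Alb in groups with at least 2 such mice. Low signal limits Saa2, Saa4, Orm1, Orm2, Apcs and Hpx at day 7, where most mice were below background.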
